A study of Mus musculus with 2 samples.

Results

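The immunoglobulin genes were examined in total RNA of mouse gastrocnemius, the superficial muscle of the calf. They were chosen by annotated gene type, as all genes that the GENCODE M21 annotation of the mm10 genome lists as immunoglobulin constant (C), variable (V), diversity (D) or joining (J) genes. The rule found 264 of 55536 annotated genes: 13 C, 218 V, 19 D and 14 J genes. By symbol, 142 belong to the heavy chain locus on chromosome 12, 106 to the kappa light chain locus on chromosome 6 and 12 to the lambda light chain locus on chromosome 16. The other 4 carry a predicted-gene symbol, Gm42543 and Gm43218 (V, chromosome 6) and Gm37327 and Gm16968 (D, chromosome 12). The set was proposed with the counts of these libraries known, so its levels are described and not tested.

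Both libraries were of 1 group: adult female mice of a 5xFAD by CAST cross, 8 to 10 months old, obtained from The Jackson Laboratory. 5xFAD mice carry mutated human transgenes under the neuronal Thy1 promoter and serve as a model of Alzheimer's disease; CAST is a wild-derived inbred strain. No treatment is given for either library, and no wild-type or other control group was among them. The labels call the libraries biological replicates 1 and 2 (here library 1 and library 2) but give both the same donor identifier, so any spread between them may be between animals, between pieces of tissue or technical. Each was made from 300 ng of RNA with a directional kit and ERCC spike-in RNAs.

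Immunoglobulins are antibodies, made of paired heavy and light chains, and they are produced by B cells and by plasma cells, which arise from them. In a developing B cell a V, a D and a J segment of the heavy chain locus, or a V and a J segment of a light chain locus, are joined by recombination, and the joined exon is spliced to a constant gene. The constant gene of the heavy chain sets the class of the antibody, and alternative processing at its 3′ end gives either a form anchored in the membrane, as part of the B cell receptor, or a secreted form. Germline transcripts, which start upstream of a constant gene and hold no V exon, are also known at the heavy chain locus.

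Library 1 held 35594289 expected counts and library 2 held 34541905, and spike-ins took 0.479% and 0.504% of them. A floor of 3 counts corresponded to 0.0847 and 0.0873 CPM, counts per 1000000 gene counts. The defining genes of the labelled tissue were present: all 5 listed skeletal muscle genes were high, for example Ckm, the muscle creatine kinase, at 14267 and 16993 TPM, a level per length of transcript and scaled to a fixed library total.

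The sequences below are the parts of the mu chain that separate its forms, and 3 short D and J segments, listed at 0 with an effective length of 0. They are from the GENCODE M21 transcripts, on mm10, 5′ to 3′ on the coding strand. In the mu sequences the capitals mark the stop codon. The membrane-specific coding end of Ighm-202 lies on the minus strand in a pair of exons, chr12:113418953-113419068 and, up to the stop codon, chr12:113418826-113418834.
Ighm membrane form: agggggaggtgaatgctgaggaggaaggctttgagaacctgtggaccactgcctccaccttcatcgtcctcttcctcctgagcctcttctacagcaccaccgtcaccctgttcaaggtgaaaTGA
The secreted-specific coding end of Ighm-201, chr12:113420867-113420928 on the minus strand, reads on from the last shared exon.
Ighm secreted form: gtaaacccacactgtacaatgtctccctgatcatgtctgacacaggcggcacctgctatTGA
The segments are Ighd1-1 (chr12:113482170-113482192, minus strand), Ighj2 (chr12:113429468-113429515, minus strand) and Igkj1 (chr6:70722562-70722599, plus strand).
Ighd1-1: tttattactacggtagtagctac
Ighj2: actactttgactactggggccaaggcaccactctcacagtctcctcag
Igkj1: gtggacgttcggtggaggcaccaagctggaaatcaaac

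Nearly all immunoglobulin counts came from a single gene, Ighm, the constant gene of the mu heavy chain of IgM. The 264 genes together had 855 expected counts in library 1 and 3643 in library 2, which is 24.1 and 106.0 CPM (65.1 ± 57.9, SD, n = 2). Ighm alone had 784 and 3566. The other 263 genes together had 71 and 77 counts, or 2.00 and 2.24 CPM (2.12 ± 0.17, SD, n = 2), so the libraries differed in Ighm and hardly in the sum of the rest. Ighm made up 91.7% of the immunoglobulin counts of library 1 (exact 95% binomial interval 89.6 to 93.5) and 97.9% of those of library 2 (97.4 to 98.3). These intervals, and all others given here, cover counting error only and hold no spread between libraries or animals. Reads without molecular identifiers are not independent molecules, so the intervals may be too narrow even for counting error.

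Few of the other genes had any count. An expected count above 0 was found for 11 of the 264 genes in library 1 and for 13 in library 2, against 37.4% and 36.7% of all genes in the same libraries. In total 19 genes had a count in either library, 5 had one in both, and 245 were at 0 in both. The 5 found in both were all constant genes: Ighm, Ighg2c, Igha, Igkc and Iglc1. In the second set of deposited tables, made by another quantifier straight from the reads, 14 genes had a count in either library, and 13 of them were among the 19.

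Among the heavy chain constant genes, Ighm (chr12:113418558-113422730, minus strand) stood at 16.29 TPM in library 1 and 86.16 TPM in library 2 (51.2 ± 49.4, SD, n = 2). By TPM it ranked 2993rd and 710th among all genes. It took 94.2% (92.4 to 95.7) and 98.1% (97.6 to 98.5) of heavy chain constant counts. Library 2 was the high one, and the second quantifier, with 776 and 3566 estimated counts, placed the same library higher.

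Ighg2c (chr12:113285325-113288932), the constant gene of the IgG2c heavy chain, was next, with 31 and 57 counts. Its level was 1.01 and 2.14 TPM (1.58 ± 0.80, SD, n = 2), and it held 64.6% and 82.6% of the heavy constant counts outside Ighm. Some of its reads could belong to other IgG genes, since 194 of its 1295 distinct 31-base words also occur in Ighg1, Ighg2b or Ighg3. Igha (chr12:113254830-113260236), the constant gene of IgA, the class typical of mucosal surfaces, went the other way, with 17 counts in library 1 and 4 in library 2 (0.56 and 0.15 TPM).

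The other heavy constant genes were at or under the floor of 3 counts. Ighg1 and Ighg2b, of the IgG1 and IgG2b heavy chains, each had 0 counts in library 1 and 3 in library 2. Ighd, of the delta chain of IgD, which mature naive B cells make from the same primary transcript as mu, had 0 and 2. Ighe, of IgE, and Ighg3, of IgG3, had 0 in both libraries. No entry named Ighg2a is in the annotation, so counts of that allele could not be assigned to it.

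**Figure D1:**
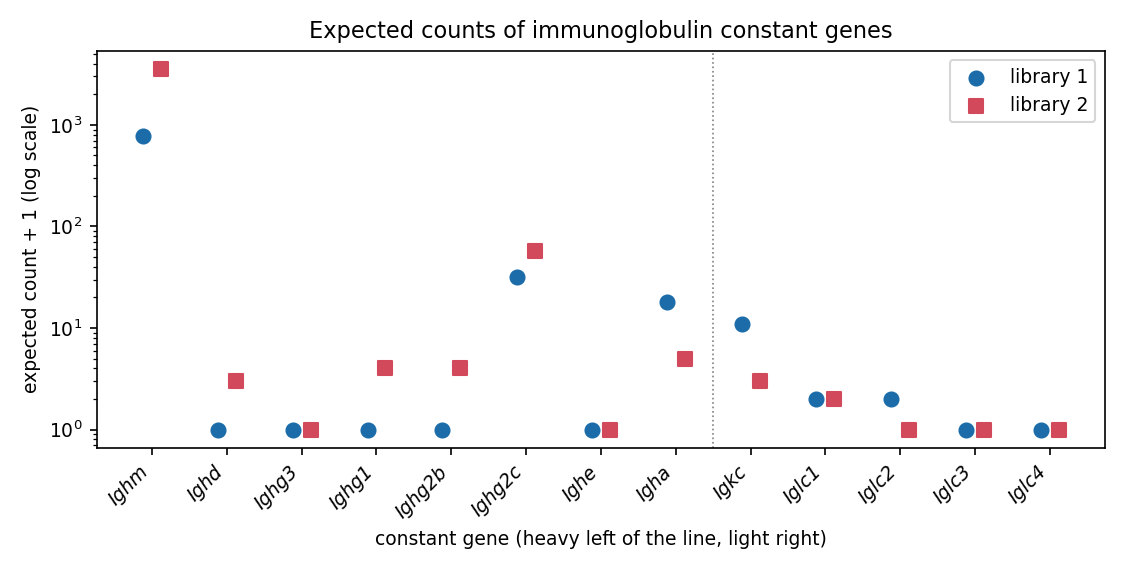
Expected counts plus 1, on a log scale, of the 13 immunoglobulin constant genes in both libraries (circles, library 1; squares, library 2); a point at 1 is a count of 0. Ighm, at 784 and 3566 counts, lies far above all others, and the light chain genes to the right of the dotted line reach at most 10 counts.

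The light chains were scarce beside Ighm. Igkc (chr6:70726435-70726966), the single constant gene of the kappa chain, had 10 counts in library 1 and 2 in library 2, or 0.76 and 0.18 TPM (0.47 ± 0.41, SD, n = 2). Of the lambda constant genes, Iglc1 had 1 and 1 count, Iglc2 had 1 and 0, and Iglc3 and Iglc4 had 0 in both libraries. Kappa thus held 10 of 12 light constant counts in library 1 (83.3%, 51.6 to 97.9) and 2 of 3 in library 2 (66.7%, 9.43 to 99.2), and no difference between the libraries was detectable at this depth. Ighm exceeded Igkc 21.4-fold in library 1 and 479-fold in library 2 on the TPM scale, which is the one that allows genes of different length to be set side by side. As counts, Ighm exceeded all light constant genes together 65.3-fold and 1189-fold. On the TPM scale the gap was smaller, with these genes summing to 0.94 and 0.29 TPM beside 16.29 and 86.16 for Ighm. The library with more Ighm was therefore the one with fewer Igkc counts, though the latter rest on 10 and 2 reads.

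The V genes supplied 11 counts in library 1 and 5 in library 2, over 5 genes in each, and no V gene had a count in both. Library 1 held Ighv5-15, Igkv5-39 and Igkv3-2 with 3 counts each, and Ighv3-3 and Igkv17-127 with 1 each. Library 2 held Ighv14-2, Ighv7-3, Ighv1-85, Igkv10-96 and Iglv1 with 1 count each. The remaining 208 of 218 V genes were at 0 in both libraries, where a count of 0 allows up to 3 counts, or 0.0847 and 0.0873 CPM. That allowance is for counting only. Reads were matched to unrearranged V segments of the reference, and any loss of reads from joined exons or CAST alleles was not tested. Heavy chain V genes held 4 of 11 V counts in library 1 and 3 of 5 in library 2. Of 39 V families, 5 had a count in each library, and the largest, Ighv1 with 53 genes, had 0 and 1. Ighm exceeded all V genes together 71.3-fold and 713-fold in counts. V genes are shorter, and on the TPM scale the gap was smaller. They summed to 1.40 and 0.73 TPM, beside 16.29 and 86.16 for Ighm. The second quantifier gave V genes 8 counts and 1 count, and 4 of its 5 V genes were among the 10 named.

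All 19 D and 14 J genes were listed at 0 in both libraries and by both quantifiers. The D genes are 10 to 29 bases long (median 17) and the J genes 37 to 54 bases (median 39), and the deposited tables list an effective length of 0 for all 33. None of the 2452 genes listed with an effective length of 0 had a count in either library by either quantifier, so these zeros are not measurements of absence. The Ighd1-1, Ighj2 and Igkj1 sequences printed above, of 23, 48 and 38 bases, show the scale. The 74 D and J genes of the T cell receptor loci were listed in the same way.

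The mu chain transcripts were mostly assigned to the membrane form. The membrane transcript Ighm-202 had 732.21 expected counts in library 1 and 3193.93 in library 2, or 15.07 and 76.01 TPM. The secreted transcript Ighm-201 had 51.79 and 372.07 counts, or 1.22 and 10.16 TPM. The posterior SD that the deposited tables give for this split was 19.43 counts in library 1 and 47.77 in library 2, small against the membrane form but large against the 51.79 counts of the secreted form in library 1. The membrane form held 93.4% and 89.6% of Ighm counts (91.5 ± 2.71, SD, n = 2). Counts were 4.36-fold higher in library 2 for the membrane form and 7.18-fold higher for the secreted form, so library 2 was higher in both. The secreted share, 6.61% and 10.4%, has no test of its difference.

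The forms can be told apart by sequence: 1305 bases are shared, 393 occur only in the membrane form and 188 only in the secreted form, and their coding parts are the 125-base and 62-base ends printed above. No 31-base word of Ighm occurred in a transcript of another gene (0 of 1856), unlike the 194 of 1295 words of Ighg2c. The second quantifier divided Ighm alike, with 724.61 and 3244.99 counts on the membrane form (93.4% and 91.0%). Both quantifiers divide the same reads between the same 2 annotated transcripts, so the second is no independent check. Where along Ighm the reads fell was not available here. All expected counts of Ighg2c and of Igha were assigned to their secreted forms in both libraries, and the 2 counts of Ighd in library 2 to its membrane form. For Ighg2c, the posterior mean still placed 4.70 of 31 and 2.69 of 57 counts on the membrane form.

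**Figure D2:**
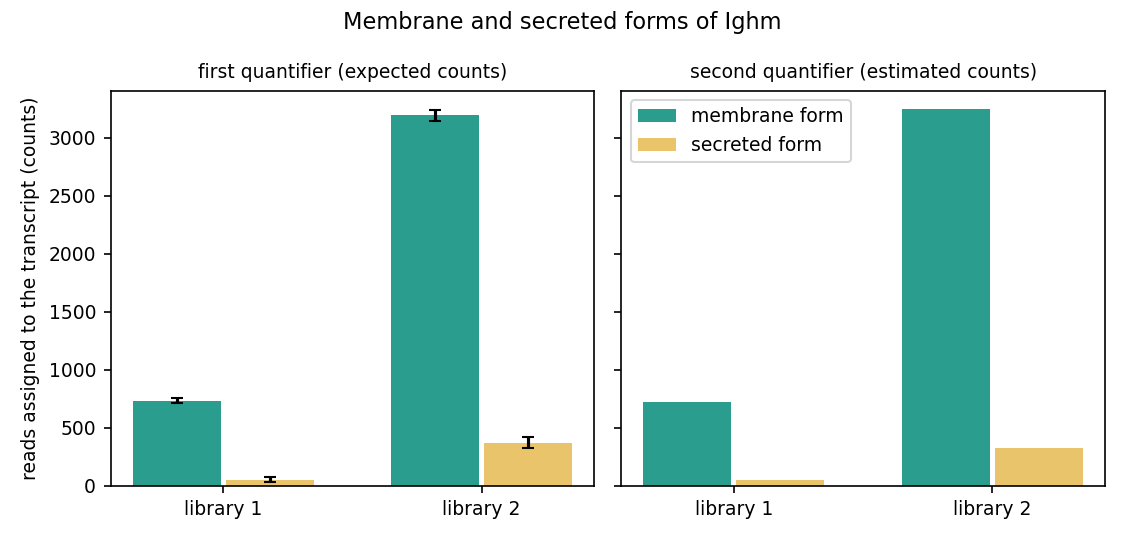
Counts assigned to the membrane (green) and secreted (yellow) transcripts of Ighm in each library, by the first quantifier (left) and the second (right); error bars are the posterior SD from the deposited tables, given for the first quantifier only. The membrane bars, 732.21 and 3193.93 on the left, exceed the secreted bars, 51.79 and 372.07, in both libraries.

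The libraries were then set against each other gene by gene, as the log2 ratio of library 2 over library 1 after TMM scaling of the gene counts (a scaling by trimmed mean of ratios). A gene was called when its summed count was at least 20 and its ratio at least 1 in size. With 1 library on each side this describes the pair of libraries and has no replicate check. Over all 14386 genes deep enough, 4.01% were called, 1.57% higher and 2.44% lower in library 2. Of the 264 immunoglobulin genes, 3 were deep enough: Ighm was called higher, Igha was called lower and Ighg2c was not called. The other 261 were below the summed count, 16 of them with some count.

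The ratio of Ighm was 2.23 (counting interval 2.11 to 2.34), or 4.68-fold (4.33 to 5.06). Among the 5152 genes with a summed count of at least 1000 it had the highest ratio of all, the next one being 1.69, and 18 of these genes were called. Among the 14386 genes with a summed count of at least 20, 27 had a higher ratio. The ratios of 95% of the 5152 genes, which run from that minimum to far deeper genes than Ighm, lay between -0.41 and 0.33.

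Ighg2c had a ratio of 0.92 (0.26 to 1.60), just inside the call limit of 1. Igha, with a summed count of 21, had a ratio of -2.05 (-4.08 to -0.43), an interval that takes in small differences. Igkc, just too shallow at 12 counts, had -2.28 (-5.51 to -0.05). So Ighm and Ighg2c were the higher ones in library 2, and Igha and Igkc the lower ones, with the intervals of Igha and Igkc resting on few counts. On the TPM scale the median of all genes was itself shifted by 0.17, and relative to that median Ighm stood at 2.23, Ighg2c at 0.91 and Igha at -2.07.

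**Figure D3:**
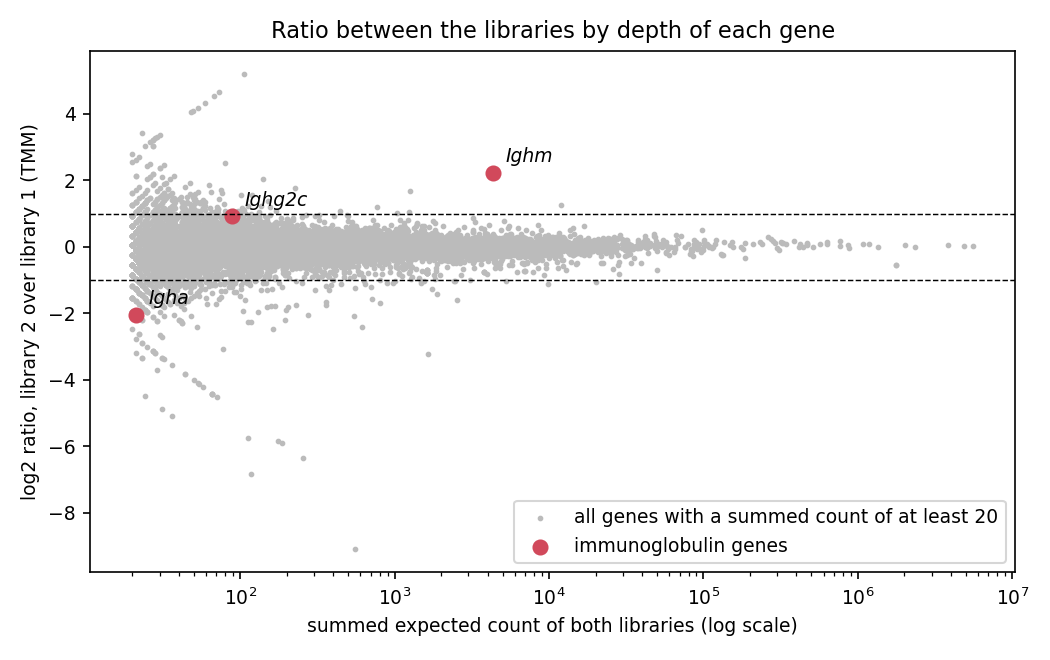
Log2 ratio of library 2 over library 1 (TMM scaled) against the summed expected count of both libraries (log scale) for the 14386 genes with a summed count of at least 20 (grey) and the 3 immunoglobulin genes among them (red); dashed lines mark the call limits of 1 and -1. Ighm, at 2.23, lies above every gene of its depth or deeper.

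Within 100 kb of Ighm the annotation lists 36 other genes, none of them overlapping it. Of these, 28 have an effective length of 0 and can show nothing about their neighbourhood. Of the 8 others, 3 had any count (Ighg1, Ighd and Adam6b, the last named after its value was seen), and together they had 1 count in library 1 and 5 in library 2. Reads outside annotated genes are not in the tables.

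Markers of B cells, the cells known to carry membrane IgM, were near 0. The 10 listed B cell markers had 200 counts in library 1 and 204 in library 2, of which Cd74, a chain of antigen presentation that other antigen-presenting cells also express, gave 191 and 192. The 9 others had 9 and 12 counts and none exceeded 5. Cd79a and Cd79b, which carry the signal of membrane immunoglobulin into the cell, had 3 and 0 counts and 3 and 5 counts. Ms4a1 (CD20) had 2 and 0, and Pax5, the B cell transcription factor, had 0 and 3. Of this list Cd74 alone was deep enough for a ratio, and at 0.05 it was not called. In bulk tissue, fewer cells of a type and less RNA per cell cannot be told apart.

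The 12 plasma cell markers ranged from 0 counts to those of Xbp1. Jchain, which joins IgM and IgA into polymers, had 7 and 3 counts. Mzb1, a chaperone of antibody assembly, had 3 and 4. Tnfrsf17 (BCMA) had 0 and 1, and Pou2af1 and Derl3 were at 0 in both libraries. Xbp1, a factor of the secretory pathway in many tissues, was at 40.98 and 45.59 TPM; Irf4, a transcription factor, had 92 and 67 counts, Tent5c had 57 and 84, and Prdm1, a regulator of plasma cell fate, had 17 and 9. The 8 markers other than Xbp1, Sdc1, Irf4 and Tent5c, left aside after their values were seen, had 38 and 25 counts. Sdc1 (syndecan-1), with 84 and 40 counts, was called lower in library 2 at a ratio of -1.03 (-1.61 to -0.47). The call is lost on the TPM scale, where Sdc1 was at 1.15 and 0.86 and the ratio -0.42. The other 4 of the 5 deep enough were not called, where 4.01% of all genes deep enough were. The part of B and plasma cells in the Ighm counts was not tested.

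Genes of other cells that tissue can bring with it were counted in the same way. The 5 red blood cell genes summed to 225 and 236 TPM, with Hbb-bs, a beta globin, at 87.48 and 87.80. None of the 5 was called, beside 4.01% of all genes deep enough. Their ratios ran from -0.15 for Hbb-bs to 0.46 (0.15 to 0.78) for Hbb-bt, another beta globin. Of the lymph node stroma genes, Ccl21a, a chemokine of lymphatic vessels and lymph nodes, had 121.68 and 111.98 counts, Cxcl13, the chemokine that attracts B cells, had 14 and 10, and Ccl19 and Cr2 were at 0 by expected count. Of the 9 T cell markers, 5 were at 0 in both libraries and the list summed to 2 and 5 counts. The second quantifier gave Cd3d 24.5 and 14.1 counts and Cd8a 16.2 and 12, where the first gave 0.

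**Figure D4:**
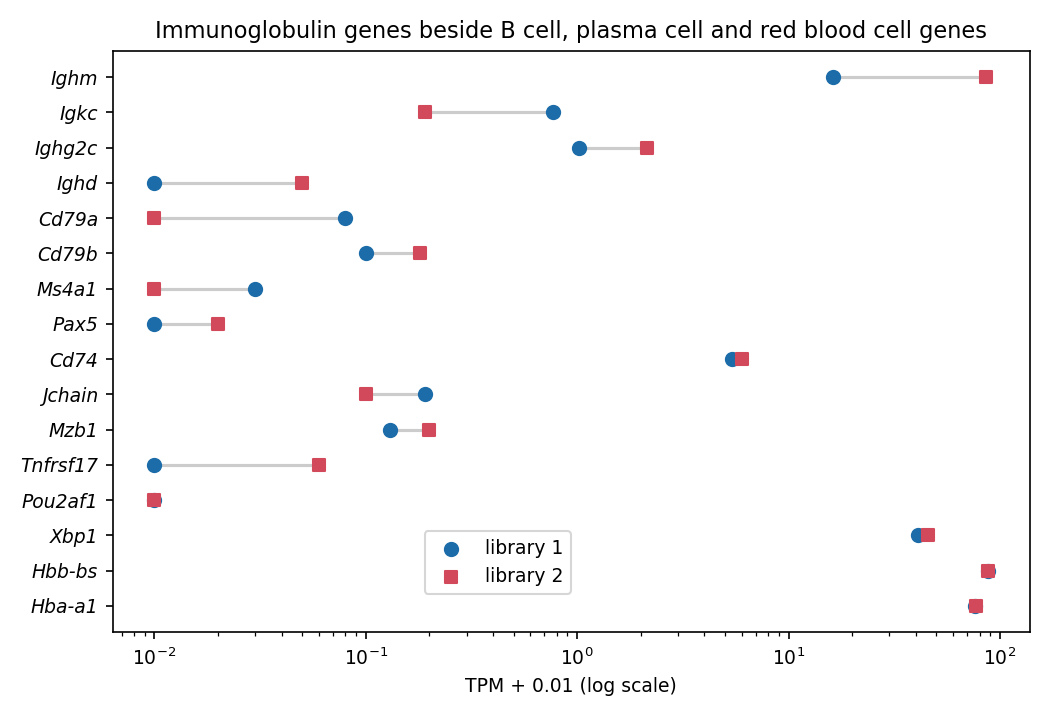
TPM plus 0.01, on a log scale, of 4 immunoglobulin constant genes and a selection of the listed B cell, plasma cell and red blood cell genes. Circles are library 1 and squares library 2, and a point at 0.01 is a TPM of 0. Ighm, at 16.29 and 86.16, is the one gene shown that is high and far apart between the libraries. Xbp1, Hbb-bs and Hba-a1 are high and close together, and Cd74 is lower, at 5.39 and 6.03, and also close. Listed genes not shown include Sdc1, which was called lower in library 2, Irf4, Tent5c and Hbb-bt.

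Of the 10 listed genes for receptors that bind immunoglobulins, 3 reached 1 TPM in either library, and 7 stayed below it in both. Fcgrt, the neonatal Fc receptor, which protects IgG from breakdown, led with 676 and 560 counts, or 13.80 and 13.31 TPM. The Fc gamma receptors were lower, with Fcgr2b at 0.68 and 0.59 TPM and Fcgr3 at 0.67 and 0.62 TPM. Fcer1g, the partner chain of Fcgr3, was at 1.09 and 0.93 TPM. Trim21, a cytosolic antibody receptor, was at 0.95 and 1.54 TPM. Its counts went the other way, at 78 and 64.21, with a ratio of -0.25 (-0.75 to 0.25). Pigr, which carries polymeric IgA and IgM across epithelia, had 10 counts in library 1 and 0 in library 2, and Fcamr, a receptor for IgA and IgM, had 0 and 3. Fcer1a and Fcgr4 were at 0 in both libraries by expected count. Of the 10 listed, 5 were deep enough and none was called, beside 4.01% of all genes deep enough. At that share no call among 5 genes is the usual outcome. The median ratio of the 5 was -0.23 beside 0.0041 over all genes.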

How the data were processed

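Gene tables with expected counts and TPM, and transcript tables with expected counts, posterior mean counts, the posterior SD of the count and TPM, were deposited per library, with the columns that RSEM writes. A second set of transcript tables, deposited by the authors, holds estimated counts and TPM, with the columns that kallisto writes. Per the deposited read-me files, both used mm10 and annotation M21, the first from a transcriptome alignment and the second from the reads; software and versions are not given in the sources used here. Reads of CAST alleles were counted against this reference, and the human transgenes are outside it.

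From these, CPM were computed over gene counts (35423706 and 34367627), and estimated counts were summed per gene. For ratios, expected counts were rounded to integers and scaled with TMM factors (edgeR 4.0.16, R 4.3.3); a 0 in 1 library was set to the floor of 3 counts, and no ratio was taken where both were at or under it. Intervals are exact binomial at 95%. The ratio step was tested on simulated data with counting noise only, where all changed genes were deeper than Igha and Igkc. That test covers neither the spread between real libraries nor such shallow genes. With 2 libraries of 1 group no test between groups was possible and no p-value is given; values are means ± SD (n = 2). Genes named are all constant genes, the V genes with the highest counts per locus (up to 5 with a count), D and J genes with a count, called genes and the marker and pathway lists. The members and lists were chosen with earlier results of these data known. None of the 264 genes was in the RefSeq promoter table used here (0 matched), so promoters were not searched for motifs. A few listed genes are not reported here by name. Alternatives were the second quantifier, TPM, DESeq2 1.42.0 size factors, spike-in totals, other count minimums and leaving out either library.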

Additional observations from a re-analysis of the deposited data

How the results depend on the processing

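Of the values recomputed under the alternatives, 50 kept close to the reported one, 8 moved and none reversed. Close meant levels and shares within 1 SD, ratios within their counting interval and counts of genes within 1.5 times. With 2 libraries, a level or share of 1 library alone always lies within 1 SD of the mean. Levels and shares without either replicate were therefore counted as close by construction and check nothing. The heavy chain share of immunoglobulin counts, 98.8%, was 95.2% on the TPM scale, and the heavy share of V counts, 48.2%, was 18.8% by the second quantifier, on 8 counts and 1 count. The Ighm ratio, 2.23, was 2.21 with DESeq2 size factors, 2.15 with spike-in totals, 2.24 by the second quantifier and 2.40 as a TPM ratio, before the shift of the TPM median is taken off. The 577 genes called became 1208 at a summed count of at least 10 and 2630 with no minimum. The 2 immunoglobulin genes called became 3 under either (Igkc added) and 3 on the TPM scale (Ighg2c added). Ighg2c was at 1.08 there, before the shift of the TPM median is taken off. It stayed below the call limit with DESeq2 size factors (0.90), spike-in totals (0.85) and the second quantifier (0.65). The 19 genes with a count in either library were 13 without replicate 1 and 11 without replicate 2. Without replicate 1 and without replicate 2, the immunoglobulin level was 106.0 and 24.1 CPM, so each library alone moves it by more than 1.5 times; the heavy share was 99.9% and 97.8%, the Ighm share of heavy constant counts 98.1% and 94.2%, kappa over lambda 2.00 and 5.00, the heavy share of V counts 60.0% and 36.4% and the membrane share of Ighm 89.6% and 93.4%. The B cell markers, 200 and 204 counts, averaged 10.5 without Cd74; this alternative and those for the membrane share and Sdc1 were chosen after seeing the data. No paired analysis was possible because there is only 1 group. Depth limits all genes but Ighm and Ighg2c: at these totals, values of 1 to 10 counts carry no ranking.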

Other observations

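The genes listed for the surrogate (stand-in) light chain and for the rearrangement and mutation of immunoglobulin genes split by role. Those particular to lymphocytes were at or near 0: Rag2, Igll1, Vpreb1, Vpreb2 and Vpreb3 had 0 expected counts in both libraries, Rag1 (the recombinase) had 0 and 2, and Dntt, which adds bases at junctions, had 4 and 5. Genes of general DNA repair on the same list were expressed: Xrcc5 and Xrcc6, the Ku subunits, at 8.48 and 11.94 TPM and at 9.14 and 11.41 TPM, Ung at 2.52 and 3.53 and Lig4 at 1.79 and 2.43. None of the 6 deep enough was called, beside 4.01% of all genes deep enough.

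The T cell receptor genes, which are built the same way, were sparser than the immunoglobulin genes. Their 226 C, V, D and J genes had 4 expected counts in each library, spread over 6 genes. There was no counterpart of Ighm: the highest single expected count was 2. The second quantifier gave them 8.20 and 9.13 counts. Of the 226, 74 have an effective length of 0, against 33 of the 264 immunoglobulin genes. The 164 immunoglobulin pseudogenes had 1 and 0 counts, and the 4 genes of the annotated type LV, outside the rule, were at 0 in both.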
